A study of Mus musculus with 33 samples.

Results

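Livers collected 4 days (d) after a 70% partial hepatectomy were compared with livers collected at 3 d, the interval in which the wave of cell division after the operation subsides. The comparison uses 6 of the 33 arrays of a time course that runs from 0 to 14 d: 3 arrays labelled 4 d and 3 labelled 3 d. Each array holds total RNA of mouse liver, and the labels call the 3 arrays of a time biological replicates without saying whether animals were pooled. All genes were compared, with 1 probe set per gene, the brightest over all arrays, which gave 18193 genes. Of these, 13642 reached a log2 value of 5 on 3 or more of the 33 arrays and were tested. The 3 arrays of 0 d, livers labelled with an interval of 0 days, are given as the starting level, and nothing in the labels names a sham operation, a strain, a sex or an age. Because 4 d and 3 d livers all had the operation, the comparison holds the surgery constant and changes the time.

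When most of a rodent liver is removed, the remaining hepatocytes, which are normally out of the cell cycle, enter it nearly together, copy their DNA and divide until the mass is restored. The cycle runs through G1, in which cyclins and the E2F factors switch on replication genes, S phase, in which the MCM helicase and the polymerases copy DNA, G2 and mitosis, driven by CDK1 with cyclins A and B, and cytokinesis. Specialised work of the hepatocyte, such as the urea cycle, drug oxidation, bile acid transport and secretion of plasma proteins, is known to be reduced in the regenerating liver and to return later.

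The deposited values are log2 probe set values on a common scale. Medians of the 6 arrays lay between 5.33 and 5.36, and each correlated with the other arrays of its time at r of 0.9943 to 0.9973. Albumin (Alb), the main plasma protein of hepatocytes, read 14.74 to 14.77 at 4 d and 14.76 to 14.80 at 3 d, near the top of the scale. The adipocyte hormone gene Adipoq read 3.09, 3.13 and 3.31 at 4 d and 2.97, 2.97 and 3.22 at 3 d, near the floor, while the labels give liver as source and tissue and name fat tissue in their description. The 18S ribosomal RNA control probe sets averaged 10.31 to 11.01 at 4 d and 11.09 to 11.46 at 3 d, so the groups did not overlap, and the part of that difference in the results was not tested. In whole liver, fewer cells expressing a gene and less RNA of it per cell cannot be told apart.

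At 4 d, relative to 3 d, many proliferation genes fell and a smaller set of metabolic and secretory genes rose. Over all genes tested, 853 passed an adjusted p of 0.05 (6.25%), 440 lower at 4 d (3.23%) and 413 higher at 4 d (3.03%), in limma's moderated test over all 33 arrays with Benjamini-Hochberg adjustment. The falls were larger: 118 of the called genes were at least 2-fold lower (0.865% of genes tested), and 9 were at least 2-fold higher (0.066%). At an unadjusted p under 0.05 in the same fit, 2717 of the 13642 genes differed, in either direction. The median difference over all genes was 0.02 on the log2 scale.

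Of 217 genes in 8 lists of proliferation genes, 207 were measured and 199 passed the filter on low values. Among these 199, 111 were called lower at 4 d (55.8%), 0 were called higher, and 80 were at least 2-fold lower, beside the background of 3.23% lower. At an unadjusted p under 0.05 the counts were 150 lower and 0 higher, beside 2717 of all 13642 genes in either direction. The groups of arrays did not overlap, with 4 d lower, in 161 of the 199 (80.9%), against 12.9% of all genes tested. Their median difference was -0.78, against 0.02 over all genes. Without the filter 108 were called. The count was 50 without 3 d replicate 1, 52 without 3 d replicate 2, 73 without 4 d replicate 2 and 62 without 4 d replicate 3, and 133 when only the 6 arrays were fitted.

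Of 408 genes in 12 lists of hepatocyte functions, 355 were measured and 350 passed the filter. Among these, 49 were called higher at 4 d (14.0%, beside a background of 3.03%) and 0 lower, and 4 of the 49 were at least 2-fold higher. At an unadjusted p under 0.05 the counts were 108 higher and 8 lower, beside 2717 of all 13642 genes in either direction. In 146 of the 350 (41.7%) the arrays of 4 d lay wholly above those of 3 d, against 18.0% of all genes. The median difference was 0.21, and 271 members had a positive difference and 79 a negative difference. The count was 25 without 3 d replicate 1, 24 without 3 d replicate 2, 23 without 4 d replicate 2, 30 without 4 d replicate 3 and 78 when only the 6 arrays were fitted.

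**Figure D1:**
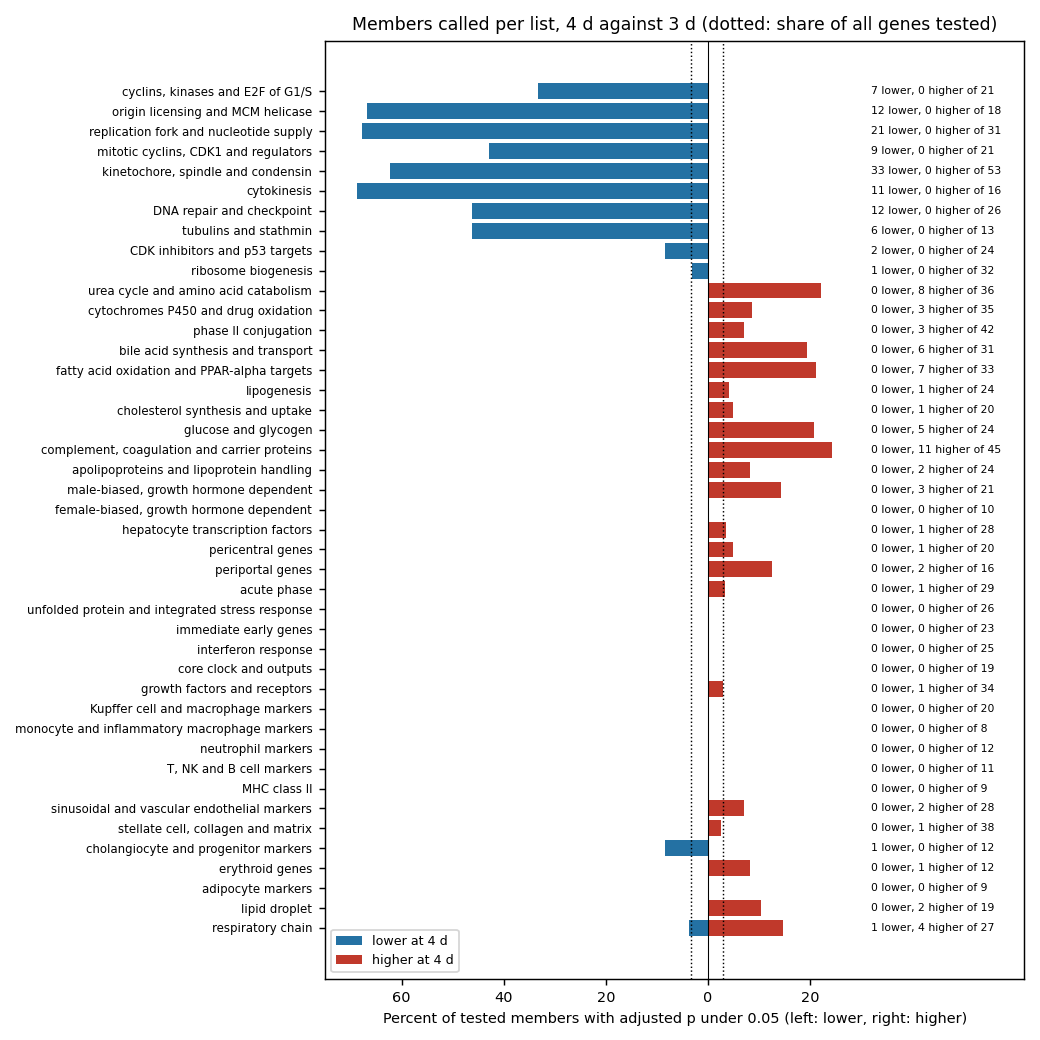
Share of the tested members of each gene list called lower (left, blue) or higher (right, red) at 4 d than at 3 d, in percent, with the counts printed at the right. Dotted lines mark the shares over all 13642 genes, 3.23% lower and 3.03% higher; the blue bars of the 8 proliferation lists run from 33.3% to 68.8%, and the red bars of the hepatocyte lists from 3.57% to 24.4%.

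The level of the lists over the whole course places the 2 days. The median difference of the 199 proliferation genes from their 0 d means was 0.06 at 1 d and 0.69 at 1.5 d (means of 3 arrays). It averaged 1.51 at 2 d, where 1 array (0.74) stood well below the others (1.92 and 1.87). At 4 d it was 0.44, 0.40 and 0.28 on the 3 arrays, against 1.23, 1.15 and 0.99 at 3 d, and at 7 d it averaged 0.03. For the 350 hepatocyte genes it was 0.01, 0.03 and -0.03 at 4 d, against -0.23, -0.25 and -0.18 at 3 d, and the mean had been lowest at 0.5 d (-0.45). The arrays of 4 d and 3 d thus did not overlap on either measure.

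**Figure D2:**
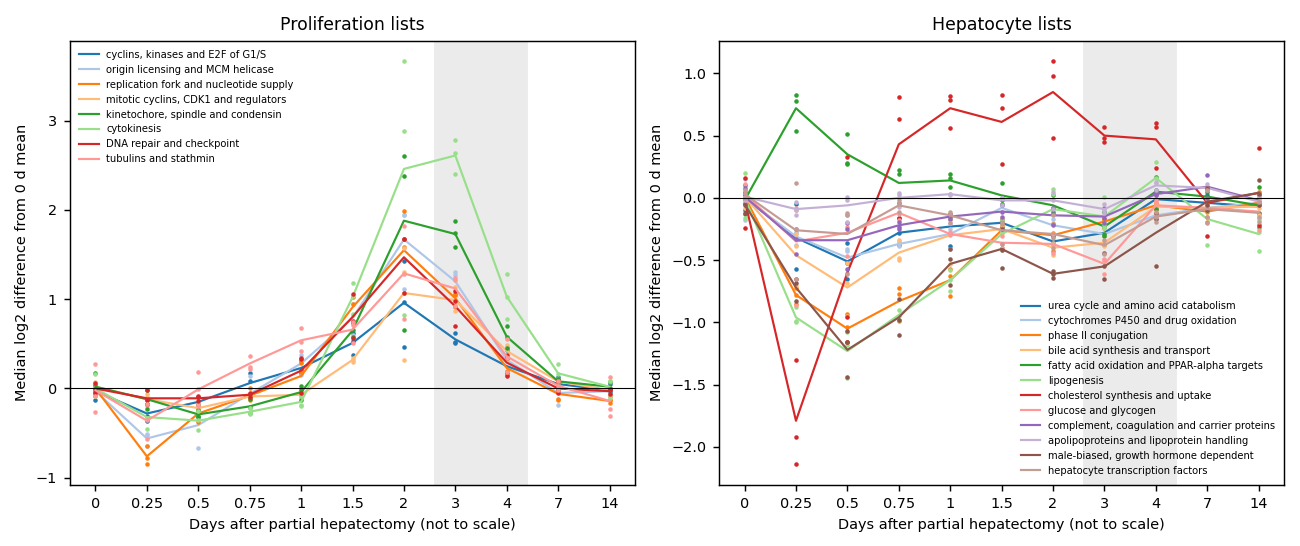
Median log2 difference from the 0 d means of the members of each proliferation list (left) and each hepatocyte list (right), against days after partial hepatectomy in order, not to scale. Points are single arrays, lines join the means of 3 arrays, and the grey band marks 3 d and 4 d; the lines of all 8 proliferation lists drop across the band.

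Of 18 tested genes of origin licensing and the MCM helicase, 12 fell, with a median of -0.93. Of 31 genes of the replication fork and nucleotide supply 21 fell, with a median of -0.73. Cdc6, which loads the MCM helicase onto origins, read 5.15, 3.76 and 3.67 at 4 d, against 6.15, 6.24 and 5.80 at 3 d. It was 3.65-fold lower at 4 d (log2 difference -1.87, SE 0.39, adjusted p 0.00506), and the arrays did not overlap, although 4 d replicate 1 lay between the other 4 d arrays and the 3 d arrays. Mcm2, a subunit of the helicase, read 8.35, 7.84 and 7.69 at 4 d and 9.30, 9.55 and 9.34 at 3 d, a 2.70-fold fall (adjusted p 0.00137). Its arrays at 0 d, 7.30 to 7.82, overlapped those of 4 d.

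The other helicase subunits moved in the same direction by similar amounts. Differences were -1.75 for Mcm5, -1.42 for Mcm6, -1.22 for Mcm3, -1.12 for Mcm7 and -1.11 for Mcm4, all called. Gins2, part of the complex that activates the helicase, read 6.03, 5.89 and 5.67 at 4 d and 7.29, 7.27 and 7.17 at 3 d (2.60-fold lower, adjusted p 0.000111). The probe sets of Mcm10 (0.23), Orc1 (0.17) and Cdc45 (0.02) did not pass. Without single arrays the calls of Mcm3, Mcm4 and Mcm6 were lost in 4 of 6 cases each (for Mcm6 without 3 d replicate 1, 3 d replicate 2, 4 d replicate 2 or 4 d replicate 3, with adjusted p up to 0.0877), and that of Mcm5 without 4 d replicate 2 (0.0539). Those of Cdc6, Mcm2, Mcm7 and Gins2 passed without each array.

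At the fork, Rfc4, a subunit of the clamp loader, read 6.10, 5.90 and 6.06 at 4 d, against 7.64, 7.59 and 7.16 at 3 d (2.72-fold lower, SE 0.19 on the log2 scale, adjusted p 0.000102). The sliding clamp Pcna read 10.38, 10.19 and 9.96 at 4 d and 11.23, 11.32 and 11.17 at 3 d, a difference of -1.06 (adjusted p 0.00228). Prim1 (-1.50), the primase, Lig1 (-1.39), which joins Okazaki fragments, and Pola1 (-1.01), the polymerase that starts strands, fell as well. Rrm2, which supplies deoxynucleotides, had a larger difference (-1.83, adjusted p 0.0217) and so did Uhrf1 (-1.59, adjusted p 0.00761), which copies DNA methylation. The call of Rrm2 was lost without 3 d replicate 1, 3 d replicate 2, 4 d replicate 2 or 4 d replicate 3 (adjusted p up to 0.0981) and that of Uhrf1 without 3 d replicate 1 or 4 d replicate 2 (0.0571), while Rfc4, Pcna, Prim1, Lig1 and Pola1 passed without each array.

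Genes of the G1/S transition gave fewer calls, 7 of 21, with a median of -0.32. Ccna2, the cyclin of S phase and G2, read 7.30, 7.92 and 7.75 at 4 d and 9.58, 9.68 and 9.31 at 3 d, a 3.65-fold fall (adjusted p 0.019). Ccne2, a cyclin E, read 5.60, 4.58 and 4.75 at 4 d and 6.68, 6.46 and 6.28 at 3 d, a difference of -1.50 (adjusted p 0.0203). The calls of Ccna2 and Ccne2 were each lost in 4 of the alternative fits: Ccna2 without 3 d replicate 1, 3 d replicate 2 or 4 d replicate 1 and in the fit of 21 arrays, Ccne2 without 3 d replicate 1, 3 d replicate 2, 4 d replicate 2 or 4 d replicate 3. The highest adjusted p were 0.0811 for Ccna2 and 0.112 for Ccne2.

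Cyclin D1 (Ccnd1), which carries growth signals into the cycle, did not pass the test (-0.34, adjusted p 0.728). It read 10.29, 9.17 and 9.21 at 4 d, against 10.01, 10.03 and 9.64 at 3 d and 7.81, 8.25 and 8.02 at 0 d. On the array of 4 d replicate 1 it was higher than on the 3 d arrays, and on the other 4 d arrays it was lower than on all of them. Against 0 d its difference at 4 d was 1.53 (adjusted p 0.0544). Cdk4 (-0.07), Cdk2 (-0.21), Ccne1 (-0.09) and Myc (-0.17) did not pass either.

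The 5 list members with the largest called falls, Ect2, Birc5, Cdkn3, Aurka and Pbk, belong to the lists of mitosis and cytokinesis. Of 53 tested genes of the kinetochore, spindle and condensin 33 fell (median -1.21), of 16 genes of cytokinesis 11 fell (median -1.43), and of 21 mitotic cyclins, CDK1 and regulators 9 fell (median -0.66). Ect2, which triggers the contractile ring, read 4.55, 5.10 and 4.94 at 4 d, against 7.43, 7.19 and 7.21 at 3 d and 3.60, 3.15 and 4.15 at 0 d. That is a 5.32-fold fall (log2 difference -2.41, SE 0.36, adjusted p 0.000306), with every 4 d array below every 3 d array and above every 0 d array. Birc5 (survivin), of the complex that directs chromosome separation, read 6.94, 7.16 and 7.02 at 4 d and 9.39, 9.36 and 9.19 at 3 d (4.85-fold lower, adjusted p 0.00224). Aurka, the Aurora A kinase of the spindle poles, read 6.11, 6.40 and 5.96 at 4 d and 8.36, 8.33 and 8.11 at 3 d (4.33-fold lower, adjusted p 0.00299). Ttk, a spindle checkpoint kinase, read 5.20, 4.81 and 4.52 at 4 d and 6.77, 7.26 and 6.42 at 3 d (3.93-fold lower, adjusted p 0.000311). Pbk, a mitotic kinase, read 7.45, 7.66 and 7.20 at 4 d and 9.74, 9.32 and 9.48 at 3 d (4.21-fold lower, adjusted p 0.00526). The calls of Ect2, Birc5, Aurka, Ttk and Pbk passed without each array.

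The kinase at the centre of mitotic entry, Cdk1, read 8.50, 8.54 and 8.40 at 4 d and 10.06, 10.18 and 9.84 at 3 d, against 6.87, 6.78 and 7.52 at 0 d (2.92-fold lower at 4 d, adjusted p 0.0153). Its partner Ccnb2, a cyclin B, read 7.34, 8.11 and 7.72 at 4 d and 9.78, 9.49 and 9.63 at 3 d. The Ccnb2 groups lay more than 1 log2 unit apart, yet with an adjusted p of 0.0663 it did not pass in the fit of 33 arrays, and passed with 0.000965 when only the 6 arrays were fitted. The fit of 33 arrays pools the spread over all times. Mki67, the antigen used to stain cycling cells, read 7.43, 7.98 and 7.60 at 4 d and 9.71, 9.67 and 9.43 at 3 d (3.82-fold lower, adjusted p 0.0183). Cdkn3, a phosphatase of CDK1, fell 4.48-fold (adjusted p 0.0126), Ube2c, which marks mitotic cyclins for destruction, 4.09-fold (0.0137), and Plk1, a mitotic kinase, by 1.68 on the log2 scale (0.0145). Kif20a, a motor of cytokinesis, fell 3.86-fold (0.0153) and Nusap1, which bundles spindle microtubules, 3.73-fold (0.0219). The call of Cdk1 was lost without 3 d replicate 1, 3 d replicate 2, 4 d replicate 2 or 4 d replicate 3 (up to 0.0713), that of Mki67 without 3 d replicate 1, 3 d replicate 2, 4 d replicate 1 or 4 d replicate 3 (0.0752), those of Ube2c and Plk1 without 3 d replicate 1, 3 d replicate 2 or 4 d replicate 3 (0.0665 and 0.0705), that of Cdkn3 without 3 d replicate 1 (0.0541), that of Kif20a without 3 d replicate 1, 3 d replicate 2 or 4 d replicate 1 (0.0752) and that of Nusap1 without any but 3 d replicate 3 (0.0871).

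**Figure D3:**
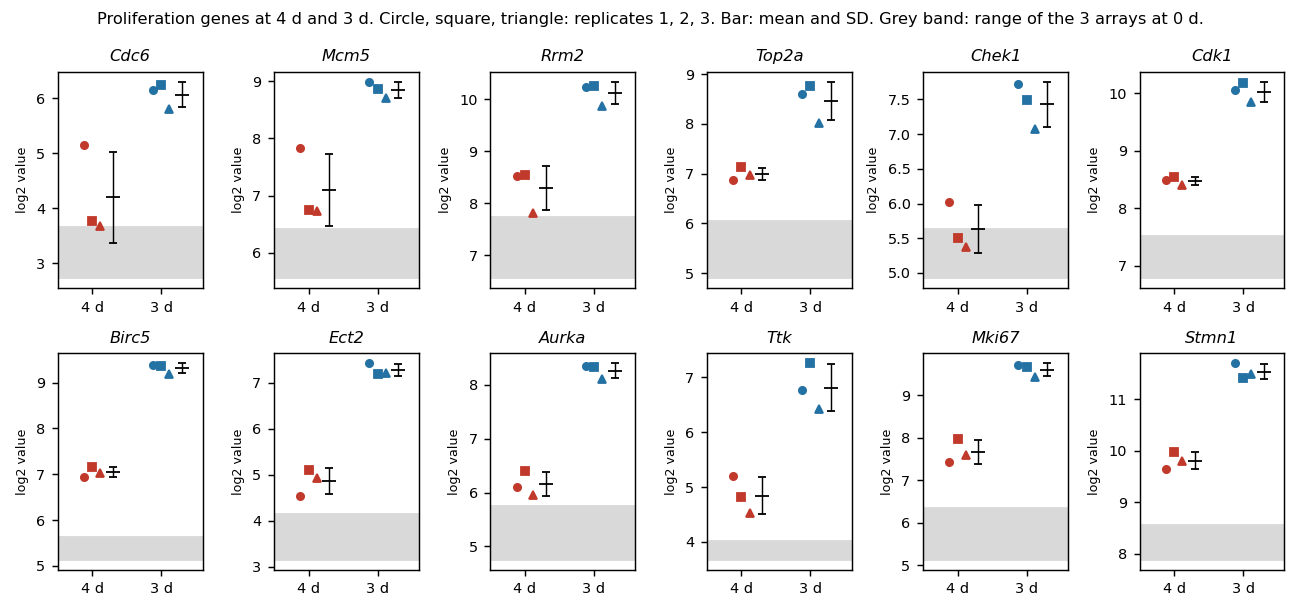
Log2 values of 12 proliferation genes at 4 d (left of each panel, red) and 3 d (right, blue), with symbols for replicates 1 to 3, bars for the mean and SD of 3 arrays, and a grey band for the range at 0 d. In each panel the 4 d arrays lie below the 3 d arrays, and for genes that include Birc5, Cdk1, Ect2, Mki67 and Stmn1 they lie above the 0 d band.

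The promoters of the 4 proliferation genes with the largest called differences that are in the promoter table follow, with Cdc6, added after its values were seen as the licensing gene with the largest fall. They are the RefSeq windows (GRCm38.p6) of 250 bases before to 50 bases after the annotated start, 5′ to 3′ on the gene's strand. Capitals mark matches on either strand to the cell cycle homology region (CHR: TTTGAA or TTCGAA), the CCAAT box (CCAAT) and the E2F motif (TTTGGCGC, TTTGCCGC, TTTCGCGC or TTTCCCGC), elements known in promoters of cell cycle genes.
Ect2, chr3:27153829-27154128, minus strand: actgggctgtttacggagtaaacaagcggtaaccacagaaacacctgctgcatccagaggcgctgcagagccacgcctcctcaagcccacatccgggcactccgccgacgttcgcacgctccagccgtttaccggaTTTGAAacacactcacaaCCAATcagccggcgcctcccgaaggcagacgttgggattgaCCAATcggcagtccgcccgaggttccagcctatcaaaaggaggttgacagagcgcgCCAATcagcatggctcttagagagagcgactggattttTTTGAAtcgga
Birc5, chr11:117848987-117849286, plus strand: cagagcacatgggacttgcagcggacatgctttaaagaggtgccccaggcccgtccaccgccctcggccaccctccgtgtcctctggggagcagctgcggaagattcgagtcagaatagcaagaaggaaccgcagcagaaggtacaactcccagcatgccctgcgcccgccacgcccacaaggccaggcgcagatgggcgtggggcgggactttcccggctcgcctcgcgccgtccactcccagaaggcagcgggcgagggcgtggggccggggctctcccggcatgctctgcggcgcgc
Cdkn3, chr14:46760291-46760590, plus strand: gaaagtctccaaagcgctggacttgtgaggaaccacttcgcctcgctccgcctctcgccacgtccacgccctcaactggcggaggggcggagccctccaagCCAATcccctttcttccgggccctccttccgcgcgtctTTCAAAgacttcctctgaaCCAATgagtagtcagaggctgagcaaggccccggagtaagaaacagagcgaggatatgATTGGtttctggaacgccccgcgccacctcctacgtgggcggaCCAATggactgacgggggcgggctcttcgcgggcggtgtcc
Aurka, chr2:172370521-172370820, minus strand: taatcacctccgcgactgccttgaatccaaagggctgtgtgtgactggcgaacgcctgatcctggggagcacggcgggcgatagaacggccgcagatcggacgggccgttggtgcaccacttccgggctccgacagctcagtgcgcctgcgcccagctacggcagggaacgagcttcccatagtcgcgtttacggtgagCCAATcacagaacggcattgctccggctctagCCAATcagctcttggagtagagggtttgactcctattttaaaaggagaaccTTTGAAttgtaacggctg
Cdc6, chr11:98907901-98908200, plus strand: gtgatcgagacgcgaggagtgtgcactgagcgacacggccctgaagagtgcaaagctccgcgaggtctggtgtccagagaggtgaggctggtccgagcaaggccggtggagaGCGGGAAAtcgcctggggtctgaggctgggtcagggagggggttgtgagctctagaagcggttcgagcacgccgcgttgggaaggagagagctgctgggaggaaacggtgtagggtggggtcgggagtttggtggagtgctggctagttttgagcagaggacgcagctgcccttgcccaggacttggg
The Ect2 window holds 2 CHR and 3 CCAAT matches, that of Cdkn3 1 and 4, and that of Aurka 1 and 2. The Cdc6 window holds 1 E2F match, 138 bases before the start, and the Birc5 window holds no match to these letters. Each window is the first listed for its gene, and any other start was not searched.

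Over the tested members with a window (164 of 199), 68 held a CHR match (41.5%), 103 a CCAAT match (62.8%) and 35 an E2F match (21.3%). The shares over the 10959 tested genes with a window were 14.1%, 38.3% and 3.88%. Over all 27025 windows, which include genes not tested, they were 19.4%, 37.9% and 2.32%. Over the 276 hepatocyte members with a window they were 18.1%, 48.2% and 1.81%. Within the proliferation lists the CHR match was found in 75.0% of the windows of mitotic cyclins and regulators (12 of 16) and 63.3% of those of the kinetochore, spindle and condensin (31 of 49). It was found in 4.76% of those of DNA repair and checkpoint (1 of 21). The E2F match was found in 61.5% of the windows of licensing and MCM genes (8 of 13) and 6.25% of those of mitotic cyclins and regulators (1 of 16). These shares describe letters in windows, and no binding was measured.

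Of 26 tested genes of DNA repair and checkpoint 12 fell and 14 did not pass (median -0.60), and all 26 differences were negative. Of 13 tubulin and stathmin genes 6 fell and 7 did not pass (median -1.15). Chek1, the kinase that restrains mitosis during replication stress, read 6.02, 5.51 and 5.37 at 4 d, against 7.72, 7.49 and 7.08 at 3 d (3.47-fold lower, adjusted p 0.000306). Fancb, of the Fanconi repair complex, read 4.86, 4.52 and 4.18 at 4 d and 6.07, 5.99 and 5.62 at 3 d, with the lowest adjusted p of the proliferation lists (1.64e-05). Stmn1 (stathmin), which destabilises microtubules, read 9.65, 9.98 and 9.80 at 4 d and 11.70, 11.41 and 11.50 at 3 d (3.32-fold lower, adjusted p 0.00389). Hmgb2, a chromatin protein of dividing cells, had a difference of -1.63 (adjusted p 0.000509). These 4 calls passed without each array.

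At 4 d the cycle genes had not all reached the 0 d level. Against 0 d, 16 of the 199 proliferation genes were called higher at 4 d and 0 lower, beside 1.88% of all genes higher, and the median was 0.38. At 3 d 156 were called higher than at 0 d and 1 lower, beside 10.2% of all genes higher, with a median of 1.14. The comparisons share the 0 d arrays. Cep55, which acts in the final cut between daughter cells, read 5.77, 6.25 and 6.13 at 4 d, 7.60, 7.70 and 7.02 at 3 d and 3.25, 4.09 and 4.35 at 0 d, and was 2.15 log2 units higher at 4 d than at 0 d (adjusted p 0.000837). Ccnb2 (2.30), Mki67 (2.11), Pbk (1.84), Stmn1 (1.68), Top2a (1.63) and Bub1 (1.62) were called higher at 4 d than at 0 d too. Replication genes were closer to the start: Pcna differed by 0.41 (adjusted p 0.302) and Mcm2 by 0.43 (0.412) between 4 d and 0 d.

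Of 24 tested CDK inhibitors and p53 targets 0 were called higher in the limma fit (1 at an unadjusted p under 0.05), beside 3.03% of all genes. In a list of 24 genes, 0 calls cannot be told apart from that share. The calls lower were 2 (8.33%, beside 3.23% of all genes): Cdkn2d, an inhibitor of CDK4 and CDK6 (-1.02, adjusted p 0.0462), and Mdm2, which degrades p53 (-0.39, adjusted p 0.0394). The call of Cdkn2d was lost without any of the 6 arrays in turn (up to 0.159) and that of Mdm2 without every array but 3 d replicate 3 (up to 0.198). Cdkn1a (p21) read 6.98, 7.89 and 7.17 at 4 d, against 7.84 to 8.31 at 3 d, and did not pass (-0.77, adjusted p 0.37). Ribosome biogenesis, which serves growth, had 1 call in 32 (3.12% lower, beside 3.23% of all genes). It was Nhp2, of the particles that modify ribosomal RNA (-0.50, adjusted p 0.022). The call was lost without 3 d replicate 1, 3 d replicate 2, 4 d replicate 2 or 4 d replicate 3 (up to 0.0975).

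The hepatocyte genes that rose were spread over amino acid breakdown, bile acid handling, fatty acid oxidation, sugar metabolism and secreted proteins. Prodh, the proline dehydrogenase, read 10.58, 10.77 and 10.84 at 4 d, against 9.79, 9.45 and 9.81 at 3 d and 11.13, 10.97 and 11.19 at 0 d. It was 2.06-fold higher at 4 d than at 3 d (SE 0.17 on the log2 scale, adjusted p 0.000509), and the 4 d arrays lay between those of 3 d and 0 d. Prodh2, which breaks down hydroxyproline, read 10.68, 10.46 and 10.62 at 4 d and 9.82, 9.62 and 9.83 at 3 d (1.78-fold higher, adjusted p 8.33e-05). Of 36 tested genes of the urea cycle and amino acid breakdown 8 rose (22.2%), among them Cdo1 (0.58), which oxidises cysteine, Gpt (0.52), the alanine aminotransferase, and Otc (0.37), of the urea cycle. The calls of Prodh and Prodh2 passed without each array, that of Gpt was lost without 3 d replicate 2 (0.0589), that of Cdo1 without 3 d replicate 2, 4 d replicate 2 or 4 d replicate 3 (0.0937), and that of Otc without 3 d replicate 2, 3 d replicate 3, 4 d replicate 2 or 4 d replicate 3 and with the mean of its probe sets (up to 0.358). Ass1 (-0.43, adjusted p 0.621) and Cps1 (-0.11, adjusted p 0.606), also of the urea cycle, did not pass.

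Of 31 tested genes of bile acid synthesis and transport 6 rose (19.4%). Abcc3, a basolateral exporter, read 10.19, 10.03 and 9.86 at 4 d, against 8.82, 9.21 and 9.14 at 3 d and 10.47, 10.59 and 10.82 at 0 d (1.96-fold higher at 4 d than at 3 d, adjusted p 0.00154). Slc10a1 (NTCP), the main uptake carrier of bile acids, read 12.41, 12.24 and 12.23 at 4 d and 11.49, 11.80 and 11.47 at 3 d (1.63-fold higher, adjusted p 0.0121). Slc27a5, which activates bile acids for conjugation, averaged 12.95 ± 0.05 at 4 d and 12.28 ± 0.14 at 3 d (SD, n = 3 each; 1.59-fold higher, adjusted p 8.33e-05 by limma). In all 3 genes the groups did not overlap. Cyp7a1, which controls how fast bile acids are made, varied within both days (11.97, 10.17 and 10.13 at 4 d, 12.29, 11.09 and 10.64 at 3 d) and did not pass (adjusted p 0.664). The call of Slc10a1 was lost without 3 d replicate 1 (0.067), and those of Abcc3 and Slc27a5 passed without each array.

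Cytochromes and conjugating enzymes gave 3 calls in 35 (8.57%) and 3 in 42 (7.14%), all higher, beside 3.03% of all genes. Cyp2d22, a P450 enzyme, read 10.28, 10.51 and 10.46 at 4 d, against 9.75, 9.56 and 9.81 at 3 d (1.63-fold higher, adjusted p 0.000306), and Cyp2d10 (0.54) and Cyp2d9 (0.56) rose with it. Probe sets of these close relatives may share signal. Of 33 genes of fatty acid oxidation and PPAR-alpha targets 7 rose (21.2%), including Eci1 (0.63), an isomerase of unsaturated fats, Acads (0.46) and Acadvl (0.45), dehydrogenases of short and very long chains. Cyp2d22, Cyp2d10, Eci1, Acads and Acadvl passed without each array, and the call of Cyp2d9 did not pass without 3 d replicate 2 or 4 d replicate 2 (0.076).

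In sugar metabolism 5 of 24 tested genes rose (20.8%). Gckr, the regulator of glucokinase, read 10.87, 11.17 and 10.99 at 4 d, against 10.25, 10.20 and 10.29 at 3 d (1.69-fold higher, adjusted p 0.000196). Khk, which phosphorylates fructose, read 11.90, 11.68 and 11.65 at 4 d and 10.93, 10.93 and 10.95 at 3 d (1.75-fold higher, adjusted p 0.00966). Slc37a4, the carrier that feeds glucose 6-phosphate to glucose release, was 1.99-fold higher (adjusted p 0.036). Pklr, the liver pyruvate kinase, read 8.78, 9.33 and 8.77 at 4 d and 7.85, 7.74 and 7.80 at 3 d (2.23-fold higher, adjusted p 0.00966). Pklr belongs to the lipogenesis list and was not among the 5 calls of sugar metabolism. It was the single call among 24 lipogenesis genes (4.17% higher, beside 3.03% of all genes). The median difference of the lipogenesis genes was 0.40. In 9 of them (37.5%, beside 18.0% of all genes) the 4 d arrays lay wholly above those of 3 d. At an unadjusted p under 0.05, 9 were higher and 0 lower, beside 2717 of all 13642 genes in either direction. At 0 d Pklr ranged from 8.08 to 9.52, so its 4 d arrays lay within the range of the start. Gckr and Khk passed without each array, the call of Pklr was lost without 4 d replicate 2 (0.0725), and that of Slc37a4 without any of the 6 in turn (up to 0.131).

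Secreted proteins had the most calls, 11 of 45 in complement, coagulation and carrier proteins (24.4%). The complement gene C2 read 10.05, 10.28 and 10.33 at 4 d, against 9.38, 9.62 and 9.52 at 3 d (1.64-fold higher, adjusted p 0.0022). F12, a clotting factor, had a difference of 0.54 (adjusted p 0.000306) and Serpinf1, a secreted serpin, of 0.50 (0.000133). F5 (0.33), F7 (0.46), Proc (0.43), C8g (0.34), C1ra (0.45), Masp1 (0.52), Hrg (0.48) and Fetub (0.44) were the other calls. Hgfac, the protease that activates hepatocyte growth factor, read 10.74, 10.74 and 10.70 at 4 d and 9.89, 9.93 and 9.90 at 3 d (1.77-fold higher, adjusted p 0.000251). It was the single call among 34 growth factors and receptors (2.94% higher, beside 3.03% of all genes). Hgf itself read 5.89, 5.62 and 6.13 at 4 d and 6.52, 6.31 and 6.22 at 3 d and did not pass (adjusted p 0.0912). C2, F12, Serpinf1, C1ra, Proc and Hgfac passed without each array, and the calls of F5 and F7 were lost without any of the 6 in turn (up to 0.223 and 0.187). Those of C8g and Fetub were lost without 3 d replicate 1, 3 d replicate 2, 4 d replicate 2 or 4 d replicate 3, that of Masp1 without 3 d replicate 1 or 4 d replicate 2, and that of Hrg without 3 d replicate 2, 4 d replicate 1 or 4 d replicate 3.

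**Figure D4:**
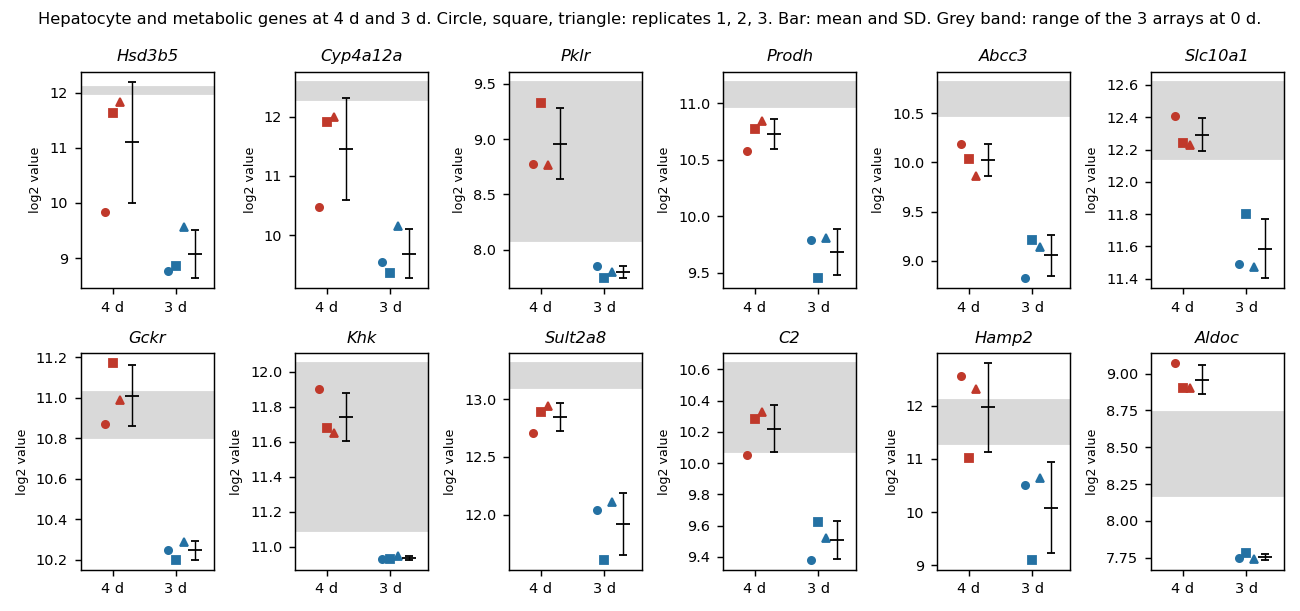
Log2 values of 12 hepatocyte and metabolic genes at 4 d (left of each panel, red) and 3 d (right, blue), with symbols for replicates 1 to 3, bars for the mean and SD of 3 arrays, and a grey band for the range at 0 d. The 4 d arrays lie above the 3 d arrays in each panel, and for Hsd3b5 and Cyp4a12a replicate 1 of 4 d (circle) lies below the other 4 d arrays.

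The largest rises within the hepatocyte lists were in genes that male mice express more than females under pulsed growth hormone. Hsd3b5, a steroid-metabolising enzyme of male mouse liver, read 9.84, 11.64 and 11.83 at 4 d, against 8.77, 8.86 and 9.57 at 3 d and 12.10, 12.11 and 11.98 at 0 d. It was 4.11-fold higher at 4 d than at 3 d (SE 0.62 on the log2 scale, adjusted p 0.0464), and its call was lost in 9 of the alternative fits, among them those without 3 d replicate 1, 3 d replicate 2, 3 d replicate 3, 4 d replicate 2 or 4 d replicate 3 (up to 0.196). Cyp4a12a, a fatty acid hydroxylase of male mice, read 10.47, 11.91 and 11.99 at 4 d and 9.54, 9.36 and 10.15 at 3 d (3.41-fold higher, adjusted p 0.000838) and passed without each array. In both genes 4 d replicate 1 was the lowest of its day. Ugt2b38 read 6.51, 7.89 and 8.26 at 4 d, against 6.48, 6.44 and 6.49 at 3 d, with replicate 1 of 4 d near the 3 d arrays, and did not pass (adjusted p 0.181). Cyp2b9, a gene more active in female liver, read 9.91, 5.43 and 4.99 at 4 d, against 5.15, 5.81 and 5.23 at 3 d, with replicate 1 of 4 d far above the rest. Of 21 tested genes of the male-biased list 3 were called higher (14.3%, beside 3.03% of all genes), Hsd3b5, Cyp4a12a and Cyp2d9. The last of these is also in the cytochrome list and Cyp4a12a in that of fatty acid oxidation. Of 10 of the female-biased list 0 were called in the limma fit, with 1 lower at an unadjusted p under 0.05.
The promoters of Hsd3b5 and Pklr, the hepatocyte members with the largest called rises in the promoter table, are given in the same form, searched also for the HNF4A motif (CAAAGTCCA) and the palindromic HNF1 motif of hepatocyte factors.
Hsd3b5, chr3:98645485-98645784, minus strand: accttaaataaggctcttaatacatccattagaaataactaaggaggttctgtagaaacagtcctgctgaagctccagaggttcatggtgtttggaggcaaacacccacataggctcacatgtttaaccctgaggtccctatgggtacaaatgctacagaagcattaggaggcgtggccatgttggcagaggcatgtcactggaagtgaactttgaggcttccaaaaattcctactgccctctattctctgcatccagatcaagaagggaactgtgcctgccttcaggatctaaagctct
Pklr, chr3:89135892-89136191, plus strand: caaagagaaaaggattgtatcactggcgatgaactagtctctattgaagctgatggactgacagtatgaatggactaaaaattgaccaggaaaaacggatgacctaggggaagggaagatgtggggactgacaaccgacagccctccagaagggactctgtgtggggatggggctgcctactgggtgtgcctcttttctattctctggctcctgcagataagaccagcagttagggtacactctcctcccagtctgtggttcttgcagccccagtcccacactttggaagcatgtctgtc
Neither window held a match to any of the 5 motifs. Each is the first listed window of its gene. Any other start of the gene was not searched, so promoters at such starts may hold these motifs. Over the 276 hepatocyte members with a window the HNF4A letters were in 3 (1.09%) and the HNF1 letters in 0, against 0.477% and 0.0074% of all windows. Over the tested genes with a window the shares were 0.484% and 0.0%.

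Against 0 d, most hepatocyte genes had no called difference at 4 d. Of the 350 tested, 4 were called lower at 4 d than at 0 d and 9 higher, beside 0.975% and 1.88% of all genes, with a median of -0.01. At 3 d 97 were called lower than at 0 d and 25 higher, beside 10.9% and 10.2% of all genes, with a median of -0.21. The 4 lower at 4 d were Ugt2b38 (-2.05), Asl (-0.68), Ugt2a3 (-0.60) and Cyp2d10 (-0.50). Among the 9 higher were Lpl (1.99), a lipase usually low in adult liver, Scd2 (1.79), a desaturase, and Gstm2 (1.03), a glutathione transferase. Cholesterol synthesis was the 1 hepatocyte list of 12 with a positive median at 3 d relative to 0 d: it was 0.46 at 4 d and 0.48 at 3 d relative to 0 d. Of its 20 genes 1 rose between the days (5.0%, beside 3.03% of all genes), Tm7sf2 (0.55, adjusted p 0.0366). That call was lost without 3 d replicate 1, 3 d replicate 2, 4 d replicate 2 or 4 d replicate 3 (up to 0.202).

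Among 28 tested transcription factors of hepatocytes 1 was called higher (3.57%, beside 3.03% of all genes), 24 differences were positive and 4 negative, and the median was 0.19. In 7 (25.0%, beside 18.0% of all genes) the arrays of 4 d lay wholly above those of 3 d. The median difference from 0 d was -0.19, -0.11 and -0.15 on the 4 d arrays, against -0.37, -0.34 and -0.45 at 3 d, without overlap. The call was Rxra (0.44, adjusted p 0.0485), the partner of many nuclear receptors, and its call was lost without any of the 6 arrays in turn (up to 0.29). The other probe set of Rxra gave -0.02 and did not pass (adjusted p 0.964). Hnf4a read 11.72, 11.99 and 11.88 at 4 d, against 11.87, 11.78 and 11.94 at 3 d, with a difference of 0.00 (adjusted p 0.999). Another of its 4 probe sets gave -0.59 and did not pass (adjusted p 0.0656). Cebpa read 10.91, 11.16 and 11.08 at 4 d and 10.63, 10.57 and 10.56 at 3 d, without overlap, but did not pass (0.46, adjusted p 0.252). Of the abundant plasma protein genes, Alb (-0.04), Ttr (-0.04) and Apoa1 (0.06) did not pass.

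Several of the largest changes lay outside the proliferation and hepatocyte lists. Esco2, which ties sister chromatids together in S phase, had the largest fall of the genes named, 5.01, 4.31 and 4.68 at 4 d against 7.65, 7.27 and 7.11 at 3 d (6.41-fold lower, adjusted p 0.000318). Depdc1a (-2.60), Cdca3 (-2.13), a trigger of mitotic entry, Zwilch (-2.01), of the spindle checkpoint, and D17H6S56E-5 (-1.98) were next. The other probe set of Cdca3 gave -0.17 and did not pass (adjusted p 0.468). Among the rises, Hamp2, a relative of the iron hormone hepcidin, read 12.57, 11.02 and 12.32 at 4 d and 10.51, 9.10 and 10.65 at 3 d (3.67-fold higher, adjusted p 0.00601), with replicate 2 the lowest at both times. Aldoc, an aldolase, read 9.07, 8.90 and 8.90 at 4 d and 7.75, 7.78 and 7.74 at 3 d (2.30-fold higher, adjusted p 0.000306), above its 0 d arrays of 8.17 to 8.74. Carmil1 (1.16), an actin regulator, Macrod1 (1.13), a hydrolase of ADP-ribose, Car1 (1.00), a carbonic anhydrase, Dio1 (0.98), which activates thyroid hormone, Pdk1 (0.95), a brake on pyruvate oxidation, Mfsd4b1 (0.95) and Nat8f1 (0.93) were the other named rises. The call of Dio1 was lost without any of the 6 arrays in turn (up to 0.14), that of Carmil1 without 3 d replicate 2 or 4 d replicate 3 (0.0639), those of Hamp2 (0.0677) and Pdk1 (0.0584) without 3 d replicate 2, that of Cdca3 without 3 d replicate 1 (0.0568), and that of D17H6S56E-5 without 3 d replicate 1, 3 d replicate 2, 4 d replicate 1 or 4 d replicate 3 (0.0666).

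**Figure D5:**
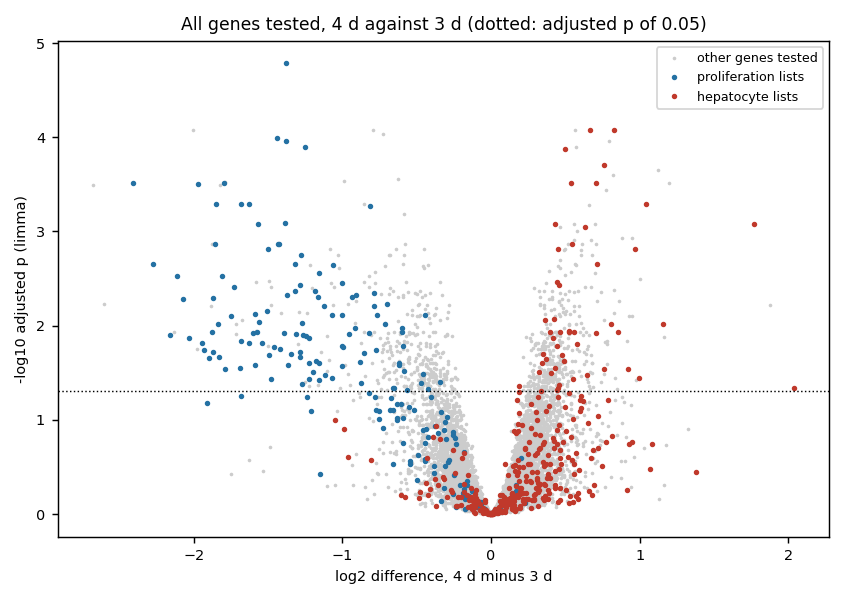
Each of the 13642 genes tested by its log2 difference, 4 d minus 3 d (horizontal), and the minus log10 of its adjusted p (vertical), with proliferation list members in blue and hepatocyte list members in red; the dotted line marks an adjusted p of 0.05. Blue points spread to the left, to -2.41 for Ect2, and red points above the line stay right of 0, with Cyp4a12a at 1.77 and Hsd3b5 at 2.04.

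Over 10 lists of markers of other cells 159 genes passed the filter. Of these 4 were called higher (2.52%, beside 3.03% of all genes) and 1 lower at 4 d. At an unadjusted p under 0.05, which 2717 of all 13642 genes passed in either direction, 22 of the 159 were higher and 3 lower. Their median difference was 0.13, and the median difference from 0 d was 0.22, 0.20 and 0.24 on the 4 d arrays, against 0.12, 0.08 and 0.14 at 3 d, without overlap. Among 28 endothelial markers 24 differences were positive (median 0.18), 11 (39.3%) had non-overlapping arrays with 4 d higher, beside 18.0% of all genes, and 7 were higher at an unadjusted p under 0.05. Among 38 genes of stellate cells, collagen and matrix 30 were positive (median 0.20), 12 (31.6%) did not overlap with 4 d higher, and 8 were higher at an unadjusted p under 0.05. These medians lie close to the 0.21 of the hepatocyte genes, and their part in the other results was not tested. Krt8, a keratin of hepatocytes and bile duct cells, read 11.13, 11.63 and 11.55 at 4 d, against 12.24, 12.06 and 12.08 at 3 d (1.61-fold lower, adjusted p 0.0219), and its partner Krt18 gave -0.65 (adjusted p 0.0551). Tie1 (0.64) and Robo4 (0.41), of endothelium, Col15a1 (0.26), a collagen, and Alas2 (0.86), of haem synthesis in red cell precursors, were the calls upward. The macrophage, monocyte, neutrophil, lymphocyte, MHC class II and adipocyte lists gave 0 calls in the limma fit, beside 6.25% of all genes called. At an unadjusted p under 0.05, 2 of the 69 genes of these lists were higher and 0 lower, beside 2717 of all 13642 in either direction. The call of Krt8 was lost without 3 d replicate 1, 3 d replicate 2 or 4 d replicate 1 (up to 0.114), that of Alas2 without 3 d replicate 2 (0.0577), that of Robo4 without any of the 6 in turn (0.146) and that of Col15a1 without any but 3 d replicate 2 (0.221).

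Acute phase genes, which the liver makes in response to injury signals, gave 1 call in 29 (3.45% higher, beside 3.03% of all genes), Hamp2, with a median of -0.16. Of the 29 differences 21 were negative and 8 positive. In 11 genes (37.9%, beside 12.9% of all genes) the 4 d arrays lay wholly below those of 3 d. In 2 (6.9%, beside 18.0%) they lay wholly above. At an unadjusted p under 0.05, 2 of the 29 were lower and 1 higher. Lcn2, an iron-binding acute phase protein, read 11.40, 9.53 and 11.25 at 4 d, against 12.43, 12.60 and 11.76 at 3 d and 5.84, 4.64 and 6.27 at 0 d. It did not pass between the days (-1.54, adjusted p 0.348) and was 5.15 log2 units higher at 4 d than at 0 d (adjusted p 0.00218). Unfolded protein response, immediate early, interferon and clock genes gave 0 calls in 26, 23, 25 and 19 genes in the limma fit, beside 6.25% of all genes called. At an unadjusted p under 0.05, 2 of these 93 were higher and 3 lower, beside 2717 of all 13642 in either direction. Of 27 respiratory chain genes 4 rose (14.8%, beside 3.03% of all genes), Sdhb (0.36), Ndufs3 (0.33), Ndufv1 (0.27) and Ndufa9 (0.21). Cycs, cytochrome c, fell by 0.38 (3.7% lower, beside 3.23% of all genes). Of these 5 calls that of Ndufs3 passed without each array, and those of Ndufv1, Sdhb, Ndufa9 and Cycs were each lost without 3 d replicate 1, 3 d replicate 2 or 4 d replicate 2.

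The call of a gene could depend on its probe set, in both directions. Of 359 list members with several probe sets that their brightest did not call, 33 had another that was called. These were 16 of 50 proliferation genes, all lower at 4 d by the other probe set, 8 of 114 hepatocyte genes, 7 of them higher, and 9 of 201 members of the remaining lists. The brightest probe set of Cdc20, the activator of mitotic exit, gave -0.19 (adjusted p 0.593), while another gave -2.11 (0.0177). For Tpx2, which activates Aurora A, the brightest gave -0.07 (0.781) and another -2.42 (0.00205). Hells, a chromatin remodeller, gave -0.29 and -1.94, Incenp, a partner of survivin, -0.15 and -1.54, and Rad51ap1, a repair factor, -0.63 and -1.89. In 2 of the 33 the signs were opposite, Cenpn, of the centromere (0.03 and -1.37), and Nr5a2, a nuclear receptor (0.18 and -0.44). The reverse case, a called gene whose other probe set was not called, was not counted. It was seen for Rxra (0.44 and -0.02), Dut (-0.95 and 0.01), Top2a (-1.46 and -0.46), Tubb6 (-1.59 and 0.12) and Cdca3 (-2.13 and -0.17). The genes named for their probe sets were chosen after their values were seen. With the mean of all probe sets of a gene 120 proliferation genes were called lower and 47 hepatocyte genes higher.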

How the data were processed

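Liver RNA (5 µg, Trizol) was hybridised to Affymetrix mouse genome arrays after biotin labelling, per the labels' protocols. The deposited values are log2 probe set values that the authors made with RMA, as the submitters' processing notes name it without a version. RMA makes the distributions of arrays alike, so it would hide a shift of most genes, and signal near the floor limits small differences.

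Of 45101 probe sets, 34945 had 1 gene symbol in the platform annotation, 932 several and 9160 none, and 64 were controls. By Entrez number 34741 matched the reference gene table, and 0 symbols changed. The 33 arrays were fitted in R 4.3.3 by limma 3.58.1 with 1 mean for each of the 11 times (22 residual and 3.69 prior degrees of freedom). P-values are two-sided, adjusted by Benjamini-Hochberg over 13642 genes, and measure the spread between arrays of a time. An exact permutation test of 3 arrays against 3 cannot go below a p of 0.1 and was not used. On simulated data with 200 changed genes of 13642, 67.2% of changes of 0.5, 88.1% of 1 and 98.5% of 2 on the log2 scale were recovered, and 8 calls were false (4.52%). The simulated noise was normal and independent between genes, with 1 SD per gene pooled over all times. Outlying arrays and correlated genes were not simulated, so these rates need not hold for the real arrays.

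The members, the 43 gene lists and the tests were chosen with earlier results of these data known. Genes named are the 15 highest and 15 lowest called differences whose arrays did not overlap, leaving out clone names, and list members. Alternatives were the filter, the mean of probe sets, normalization, prior, array weights, replicate block, subsets of arrays and each array left out. Same-numbered 4 d and 3 d arrays had deviations from their group means that correlated at -0.14, -0.09 and -0.01, so the numbers did not pair the samples. Promoter windows of RefSeq (GRCm38.p6) were taken as the first listed for a gene.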

Additional observations from a re-analysis of the deposited data

Results flagged for a closer look

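Probe sets without a single gene symbol were outside the comparison of genes. Of 4290 tested by the same fit, 73 were called lower at 4 d than at 3 d and 51 higher (2.89% called), and they are unnamed here.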

How the results depend on the processing

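No called gene reversed its direction: over the called genes named or listed and 18 alternatives, 2846 values stayed past the threshold and 554 did not. Of 191 such genes, 72 passed with each of the 6 arrays left out in turn, among them 41 of 111 proliferation genes and 18 of 49 hepatocyte genes. Leaving out 1 array gave 146 to 374 genes lower at 4 d than at 3 d (440 with all arrays), 122 to 309 higher (413), 50 to 99 proliferation genes lower (111) and 23 to 44 hepatocyte genes higher (49). It gave 890 to 1399 genes higher at 3 d than at 0 d (1398), 41 to 118 lower at 4 d than at 0 d (133) and 97 to 236 higher (257). The lowest of these came without 3 d replicate 1 (146, 50), 3 d replicate 2 (122, 890), 4 d replicate 2 (23) and 4 d replicate 1 (41, 97). Array weights gave 866 genes lower and 1146 higher at 4 d than at 3 d and 94 hepatocyte genes higher. Fitting only the 6 arrays gave 78 hepatocyte genes higher, and with the replicate block, an alternative chosen after seeing the data, 216 genes higher. With 33 arrays and the replicate block, which the deviations do not bear out, 439 genes were lower, 426 higher, 110 proliferation genes lower and 51 hepatocyte genes higher. Without 2 d replicate 2, also chosen after seeing the data, 520 genes were lower and 464 higher at 4 d than at 3 d, with 130 proliferation and 54 hepatocyte genes, 1441 were higher at 3 d than at 0 d, and 165 lower and 356 higher at 4 d than at 0 d. Signal near the array floor limits Cdc6 and others read below a log2 of 5.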
